A study of Mus musculus with 12 samples.

Results

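The miR-181 family was followed in miR-seq libraries, which count reads of mature miRs, from E18.5 livers of female fetuses. Its members were taken by name, as the entries mmu-miR-181a-5p, mmu-miR-181b-5p, mmu-miR-181c-5p, mmu-miR-181d-5p and mmu-miR-181a-1-3p, and were 5 of the 1927 mature miRs in the table. Some library held a read for 682 of these. All 5 members passed the filter on low counts, which kept 388 miRs for testing. The table also lists 5 other arms of the same hairpins, and 2 of these, miR-181a-2-3p and miR-181c-3p, passed the filter. The libraries came from 5 WT fetuses and 7 littermates that had inherited a constitutive deletion of Mir483 from the father (Mir483Pat-KO), with 1 library per fetus and a C57BL/6J background for all. The deletion was made in ES cells, of which 2 clones were injected into blastocysts, and which clone a fetus descends from is not given in the sources used here. The comparison asked whether loss of Mir483, an imprinted miR gene within Igf2 that is expressed from the paternal allele, goes along with other changes among miRs of the fetal liver.

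A mature miR guides an Argonaute protein to mRNAs that pair with its seed, the bases just after its first one, and lowers their stability and translation. A hairpin precursor can give a mature miR from its 5′ arm (5p) and from its 3′ arm (3p), and as a rule the strand that is loaded into Argonaute is kept while the other is degraded. The miR-181 family is best known from developing lymphocytes, where miR-181a tunes the sensitivity of the T cell receptor, and it has also been studied in progenitor-like cells of the liver. The late fetal liver holds hepatocytes together with blood-forming cells, and whole-liver libraries do not separate them, so that fewer cells of a type and less RNA per cell cannot be told apart.

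The mature sequences are shown because the 5p members share a seed and otherwise differ at few bases. They are RefSeq sequences for GRCm38.p6, in which all 10 miR-181 arms of the table were matched, written 5′ to 3′ with the seed (bases 2 to 8) in capitals. The first 4 are the 5p members, followed by the 3p member and by both other arms that passed the filter.
miR-181a-5p: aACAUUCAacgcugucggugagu
miR-181b-5p: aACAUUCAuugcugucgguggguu
miR-181c-5p: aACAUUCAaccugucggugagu
miR-181d-5p: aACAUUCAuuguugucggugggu
miR-181a-1-3p: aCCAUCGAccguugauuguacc
miR-181a-2-3p: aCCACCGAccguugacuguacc
miR-181c-3p: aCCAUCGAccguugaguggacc

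The seed ACAUUCA was shared by the 4 5p members and by no other of the 1679 mature miRs in the RefSeq table, a share of 0.238%. With positions counted from 1 at the 5′ end, miR-181a-5p and miR-181b-5p differ by A9U, C10U and A21G, beside 1 more base at the end of miR-181b-5p. miR-181b-5p and miR-181d-5p differ at 1 shared position, by C12U. miR-181a-5p and miR-181c-5p share their first 10 bases and are 1 edit apart, since miR-181c-5p is 1 base shorter. The seed of miR-181a-1-3p is another one, CCAUCGA, which it shares with miR-181c-3p. From miR-181a-1-3p to miR-181a-2-3p the changes are U5C, inside the seed, and U16C. How the authors' counting shared reads among arms this similar could not be checked, so the split between members is less certain than their sum.

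The family comes from 6 hairpin genes in 3 clusters (GRCm38, GENCODE annotation). Mir181a-1 (chromosome 1, 137966455 to 137966541) and Mir181b-1 (137966639 to 137966718) lie 97 bases apart on the plus strand, in introns of the noncoding gene Gm4258, and the lincRNA gene A430106G13Rik has an exon on the same strand that overlaps both hairpins. Mir181a-2 (chromosome 2, 38852735 to 38852810) and Mir181b-2 (38853830 to 38853918) lie 1019 bases apart on the plus strand, in introns of Nr6a1, a nuclear receptor gene transcribed from the opposite strand, and Mir181b-2 also overlaps an exon of Gm44144 on that strand. Mir181c (chromosome 8, 84178873 to 84178961) and Mir181d (84178716 to 84178787) lie 85 bases apart on the minus strand, in introns of Nanos3, an RNA-binding protein gene of germ cells that is transcribed in the same direction. Reads of miR-181a-5p and miR-181b-5p can therefore come from 2 genes each, and reads of miR-181c-5p, miR-181d-5p and each 3p arm from a single gene.

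The miR reads of a library summed to 711810 at the lowest and 1211160 at the highest in WT, and to 658665 and 921068 in Mir483Pat-KO, so that 3 reads correspond to 2.48 to 4.55 CPM (counts scaled to a common library total). The deleted miR followed the labels: miR-483-3p had 733 to 1281 reads in WT and 0 to 19 in Mir483Pat-KO, and miR-483-5p had 245 to 371 and 0 to 4. No library stood out as a copy of another, since the counts of the 31 same-genotype pairs differed by a chi-square of 5.53 to 43.8 per degree of freedom. Intervals given for shares reflect counting error alone and leave out the spread between fetuses. PCR copies of a molecule are read as if they were separate, which makes these intervals too narrow. The fetuses carry animal numbers in a lower range, with 4 WT and 4 Mir483Pat-KO, and an upper range, with 1 WT and 3 Mir483Pat-KO, and the labels do not say what the ranges stand for. Library index numbers 37 to 41 belong to WT and 42 to 48 to Mir483Pat-KO, so the index order and the genotype cannot be told apart.

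The 4 5p members together took 1.57% ± 0.192 (SD, n = 5) of the miR reads of a WT liver and 1.52% ± 0.162 (SD, n = 7) of those of a Mir483Pat-KO liver. In WT replicates 1 to 5 the summed share was 1.67%, 1.45%, 1.57%, 1.83% and 1.33%. In Mir483Pat-KO it lay between 1.31% and 1.75%, with a median of 1.46%. The ranges of both genotypes overlapped almost fully. miR-181a-5p made up most of the family, with 72.4% ± 0.629 (SD, n = 5) of the 5p reads in WT and 71.6% ± 1.35 (SD, n = 7) in Mir483Pat-KO. miR-181b-5p accounted for 11.1% to 13.9% in WT and 11.6% to 14.0% in Mir483Pat-KO livers, and miR-181c-5p for 10.8% to 12.4% and 10.6% to 13.0%. miR-181d-5p, the least read 5p member, gave 3.74% ± 0.139 and 3.65% ± 0.343. Ranked by mean share among the 682 miRs with a count, miR-181a-5p stood at place 18, miR-181b-5p and miR-181c-5p at 50 and 51, miR-181d-5p at 94 and miR-181a-1-3p at 208.

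**Figure D1:**
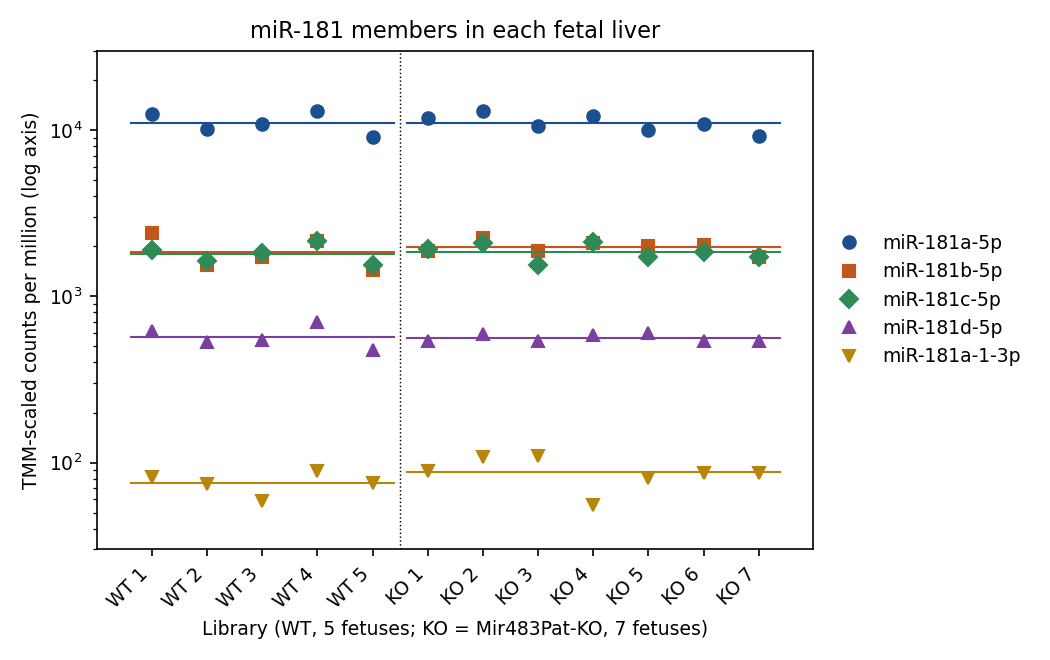
Level of each miR-181 member in each library, as TMM-scaled CPM on a log axis, for 5 WT and 7 Mir483Pat-KO (KO) fetuses, with horizontal lines at the mean of each genotype. miR-181a-5p lies between 9032 and 13033 CPM in every liver, miR-181b-5p and miR-181c-5p share a band between 1440 and 2410 CPM, and the levels of both genotypes overlap for every member.

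The order of the levels was tested within libraries, on the log2 ratio of the reads of neighbouring members, by a two-sided exact sign-flip permutation test with adjustment over the 4 pairs of neighbours. Which members are neighbours was taken from the mean levels in these same libraries, so the p-values are no independent test of the order. Reads of miR-181a-5p were 5.79-fold those of miR-181b-5p on average, with 4.99-fold to 6.63-fold in single libraries (higher in 12 of 12, exact p = 0.000488, adjusted p = 0.000651). miR-181c-5p stood 3.23-fold above miR-181d-5p, its neighbour in the genome (2.87-fold to 3.64-fold, 12 of 12 libraries), and miR-181d-5p stood 6.93-fold above miR-181a-1-3p (4.87-fold to 10.5-fold, 12 of 12), both at the same p, which is the smallest that 12 libraries allow. miR-181b-5p and miR-181c-5p, in contrast, did not differ beyond their spread. Their ratio was 1.05 on average and 0.927 to 1.28 in single libraries, with miR-181b-5p ahead in 6 of 12, 2 of 5 in WT and 4 of 7 in Mir483Pat-KO (exact permutation test, p = 0.174, adjusted p = 0.174). This is an order of reads of RNAs that are 22 to 24 bases long, and whether the library kit captured each sequence equally was not tested.

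None of the 5 members passed the test between genotypes. Of all 388 miRs tested with edgeR's quasi-likelihood F-test, 8 (2.06%) were DEMs at a Benjamini-Hochberg adjusted p under 0.05, 4 higher and 4 lower in Mir483Pat-KO (1.03% each), and 0 of the 5 members were among them. At an unadjusted p under 0.05 the numbers were 68 of 388 (17.5%) and again 0 of 5, and DESeq2 and limma-voom called 0 members as well. For 11 of the 388 miRs (2.84%) the TMM-scaled levels of WT and Mir483Pat-KO did not overlap, and for 0 of the 5 members. The 388 miRs behind these shares include both arms of miR-483, the deleted miR. The log2 fold change of the members, Mir483Pat-KO minus WT, had a median of 0.034 with 3 of 5 above 0, beside a median of 0.0028 with 195 of 388 above 0 over all miRs tested. Levels of single members are in CPM scaled by TMM, edgeR's trimmed mean of M values.

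miR-181a-5p, the member with the best known role in T cells, had 12481, 10191, 10869, 12943 and 9032 CPM in WT replicates 1 to 5. In Mir483Pat-KO its lowest, median and highest levels were 9267, 10854 and 13033 CPM. Both groups thus covered the same range, and their means of 11103 ± 1617 (SD, n = 5) and 11101 ± 1301 CPM (SD, n = 7) nearly coincided. The log2 fold change was -0.00041 (SE 0.096, edgeR adjusted p = 0.997), and its 95% interval ran from -0.20 to 0.20, which leaves room for a change between 0.868-fold and 1.15-fold.

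miR-181b-5p, from the same 2 clusters, had 2410, 1537, 1733, 2146 and 1440 CPM in WT. Its lowest, median and highest Mir483Pat-KO levels were 1717, 2004 and 2251 CPM. All Mir483Pat-KO values fell inside the WT range, which was the wider one. The log2 fold change was 0.090 (SE 0.11, 95% interval -0.15 to 0.33, edgeR adjusted p = 0.751), an interval of 0.900-fold to 1.26-fold.

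miR-181c-5p, from the Nanos3 cluster, had 1887, 1620, 1827, 2141 and 1553 CPM in WT and 1548, 1839 and 2126 CPM as the lowest, median and highest values in Mir483Pat-KO. Both groups spanned nearly the same levels. Its log2 fold change was 0.034 (SE 0.093, 95% interval -0.16 to 0.23, edgeR adjusted p = 0.893). miR-181d-5p, made from the adjacent hairpin, had 618, 529, 544, 698 and 473 CPM in WT against 536, 542 and 599 CPM as lowest, median and highest in Mir483Pat-KO. WT held both its highest and its lowest level, and the SD was 87.1 CPM in WT (n = 5) and 28.6 CPM in Mir483Pat-KO (n = 7). Its log2 fold change was -0.029 (SE 0.086, 95% interval -0.21 to 0.15, edgeR adjusted p = 0.899).

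miR-181a-1-3p, the 3p product of the Mir181a-1 hairpin, was read far less often, with 41 to 98 reads per library. It had 81.6, 74.2, 59.1, 88.7 and 75.5 CPM in WT. The lowest, median and highest Mir483Pat-KO levels were 55.6, 87.0 and 110.2 CPM. Most Mir483Pat-KO levels lay in the upper part of the WT range or above it, while the lowest of all 12 libraries was also a Mir483Pat-KO one. The log2 fold change was 0.21 (SE 0.15, unadjusted p = 0.198, edgeR adjusted p = 0.541) with a 95% interval from -0.12 to 0.54, or 0.920-fold to 1.45-fold, the widest among the members. The other 3p arms that were tested gave log2 fold changes of 0.078 for miR-181a-2-3p (95% interval -0.28 to 0.43) and 0.10 for miR-181c-3p (95% interval -0.12 to 0.32), with edgeR adjusted p of 0.859 and 0.734.

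**Figure D2:**
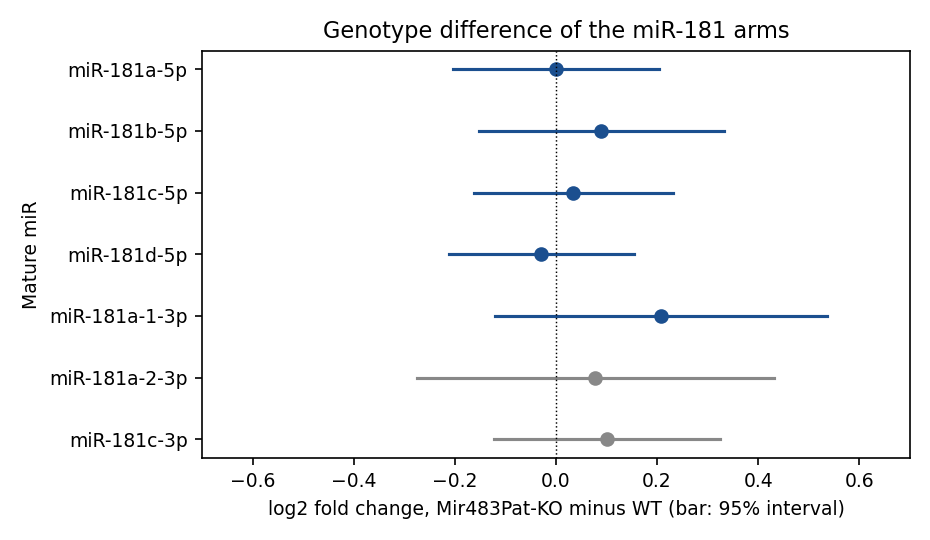
Log2 fold change (Mir483Pat-KO minus WT, n = 7 and 5) of the 5 miR-181 members in blue and of both other tested arms in grey, with points at the edgeR estimate and bars for the 95% interval. Every interval includes 0, from the narrow one of miR-181d-5p (-0.21 to 0.15) to the wide one of miR-181a-2-3p (-0.28 to 0.43).

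Reads lay strongly on the 5p side, and the 3p share differed between miR-181a and miR-181c. Whether the library kit captured both arms equally was not tested. The split of reads between the similar 5p arms of miR-181a and miR-181c could not be checked. Of the 20087 reads of miR-181c in all libraries, 7.82% (95% Wilson interval 7.46% to 8.20%) lay on the 3p arm, with 6.50% to 9.37% in single libraries. For miR-181a, whose 5p arm is the product of 2 hairpins, the 3p arms of both together took 1.16% (1.10% to 1.23%) of 114088 reads, and 0.766% to 1.52% in single libraries. In each of the 12 libraries the 3p share of miR-181c was thus several times that of miR-181a. miR-181a-1-3p provided 63.4% (60.8% to 66.0%) of the 1326 3p reads of miR-181a and miR-181a-2-3p the rest. miR-181a-1-3p exceeded miR-181a-2-3p in every library, by a ratio of 1.22 to 2.37.

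The 3p arms of miR-181b and miR-181d were hardly seen. miR-181b-1-3p had 7 reads in Mir483Pat-KO replicate 6 and was listed at 0 elsewhere, beside 19575 reads of miR-181b-5p, and miR-181b-2-3p was listed at 0 in all 12 libraries. miR-181d-3p was likewise listed at 0 throughout, beside 5764 reads of miR-181d-5p. No upper limit was set from these zeros: the table holds no count of 1, and of 794 entries predicted at 10 to 20 reads from the other libraries 58 (7.30%) were at 0.

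**Figure D3:**
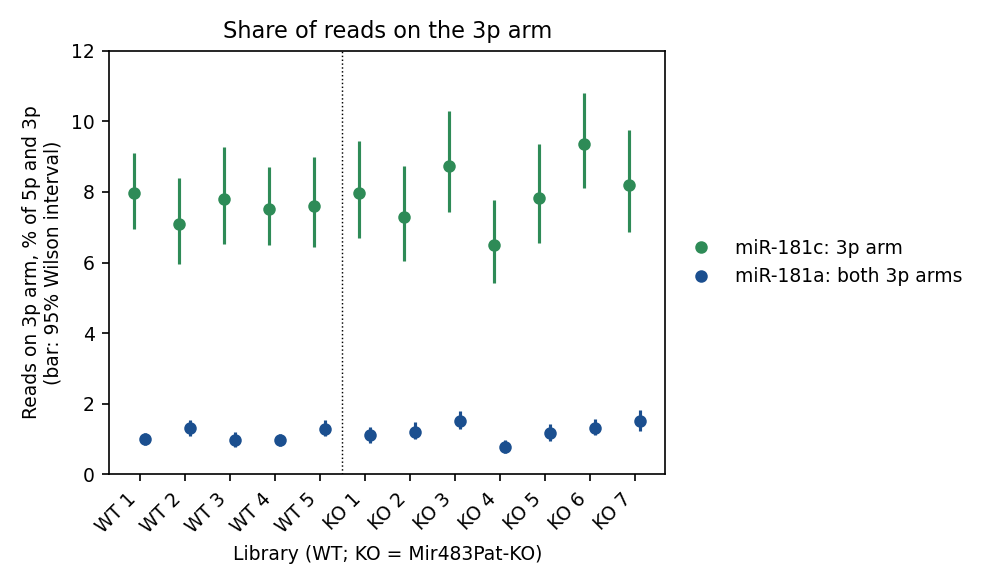
Reads on the 3p arm as a percentage of the 5p and 3p reads of miR-181c (green) and of miR-181a with both its 3p arms summed (blue), per library, with bars for the 95% Wilson interval. The miR-181c share lies between 6.50% and 9.37% and the miR-181a share between 0.766% and 1.52%, with no library in which they meet.

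Ratios within a library do not depend on scaling, and 6 of them were compared between genotypes on the log2 scale with an exact permutation test (two-sided, all ways to divide 12 libraries into 5 and 7). None passed, and the adjusted p was 0.586 for each. The 5p to 3p ratio of miR-181c had a median of 12.1 in WT (11.6 to 13.1) and 11.6 in Mir483Pat-KO (9.67 to 14.4), a mean log2 difference of -0.071 (exact p = 0.446), which was -0.027 without Mir483Pat-KO replicate 6 and -0.12 without replicate 4. For miR-181a, 5p to both 3p arms, the medians were 99.5 (75.5 to 102.6) and 81.2 (64.7 to 129.5), a log2 difference of -0.14 (exact p = 0.447). The lowest and the highest value of this ratio were both from Mir483Pat-KO livers. The balance between the 3p arms of miR-181a, -1 over -2, had medians of 1.79 in WT and 2.03 in Mir483Pat-KO (log2 difference 0.12, exact p = 0.514). Without WT replicate 2 this difference was 0.015, and without WT replicate 4 it was 0.25.

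No ratio between 5p members passed the test either. miR-181a-5p to miR-181b-5p, which come from shared clusters, had the lowest p, with medians of 6.27 (5.18 to 6.63) in WT and 5.67 (4.99 to 6.32) in Mir483Pat-KO and a log2 difference of -0.11 (exact p = 0.148). Without WT replicate 1 this difference was -0.17 (exact permutation test, adjusted p = 0.145), and without WT replicate 2 it was -0.078. miR-181c-5p to miR-181d-5p, within the Nanos3 cluster, had medians of 3.07 and 3.39 (log2 difference 0.053, exact p = 0.451). Across clusters, miR-181a-5p to miR-181c-5p had medians of 6.05 and 5.90 (log2 difference -0.033, exact p = 0.586).

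Between fetuses of a genotype, the 5p members varied more than counting allows. The SD of the log2 level after removal of the genotype means was 0.19 for miR-181a-5p, where counting alone gives 0.015, and 0.22, 0.17 and 0.15 for miR-181b-5p, miR-181c-5p and miR-181d-5p, where counting gives 0.036, 0.037 and 0.066. Among the 142 abundant miRs, defined by a mean log2 CPM no lower than 8, the median SD was 0.14. miR-181b-5p was more variable than 92.3% of these miRs, miR-181a-5p than 82.4%, miR-181c-5p than 73.9% and miR-181d-5p than 56.3%. For miR-181a-1-3p the SD was 0.28, where counting alone gives 0.17.

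These deviations ran in parallel among the 5p members, which share 1 RNA sample and 1 scaling factor in each library. Over the 12 libraries, with genotype means removed and permutations drawn within genotype, miR-181a-5p correlated with miR-181c-5p at Pearson r = 0.86 (permutation p = 0.00139, adjusted over 10 pairs 0.0072, Spearman rho = 0.87 with permutation p = 0.00123, r = 0.80 without the 2 libraries farthest from the median). With miR-181b-5p it correlated at r = 0.84 (permutation p = 0.00144, adjusted 0.0072, rho = 0.83 with permutation p = 0.00353, r = 0.77 without 2) and with miR-181d-5p at r = 0.75 (permutation p = 0.00972, adjusted 0.0194, rho = 0.71 with permutation p = 0.0222, r = 0.65 without 2). Livers with more miR-181a-5p than their genotype mean were thus mostly those with more of the other 5p members, among them WT replicates 1 and 4 and Mir483Pat-KO replicate 2.

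The remaining 5p pairs were alike. miR-181b-5p and miR-181d-5p, which are made from different clusters, correlated at r = 0.85 (permutation p = 0.00813, adjusted 0.0194, rho = 0.92 with permutation p = 0.00213, r = 0.84 without 2). For miR-181c-5p and miR-181d-5p, which share the Nanos3 cluster, r was 0.74 (permutation p = 0.00673, adjusted 0.0194, rho = 0.77 with permutation p = 0.0104, r = 0.68 without 2). For miR-181b-5p and miR-181c-5p it was 0.72 (permutation p = 0.0122, adjusted 0.0203, rho = 0.77 with permutation p = 0.0104, r = 0.77 without 2). Pairs that share a cluster thus had r of 0.84 and 0.74 and the other pairs 0.72 to 0.86, and the difference was not tested. The highest r was 0.86 for miR-181a-5p with c-5p, 1 edit apart in sequence, and then 0.85 for miR-181b-5p with d-5p, 2 edits apart. The other 5p pairs are 4 or 5 edits apart and had r of 0.72 to 0.84. How the counting shared reads among similar arms could not be checked, and its part in these correlations was not tested. When single fetuses were left out, r for the 6 5p pairs stayed between 0.62 and 0.93, but some adjusted p rose above 0.05: to 0.0644 without WT replicate 3 (miR-181a-5p with d-5p, miR-181b-5p with c-5p and with d-5p), to 0.0599 without WT replicate 4 (miR-181d-5p with a-5p and with c-5p), to 0.0797 without WT replicate 5 (miR-181d-5p with each of the others, miR-181b-5p with c-5p) and to 0.0533 without Mir483Pat-KO replicate 2 (miR-181b-5p with c-5p). Within the 8 fetuses of the lower animal-number range r was 0.64 to 0.90 for these pairs, and the adjusted permutation p was 0.0280 for miR-181a-5p with c-5p and with d-5p and for miR-181c-5p with d-5p, 0.0531 for miR-181a-5p with b-5p, and 0.133 for miR-181b-5p with c-5p and with d-5p. The upper range holds 4 fetuses, too few for a correlation.

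No correlation of miR-181a-1-3p with a 5p member passed the test. It is cut from the same hairpin as part of miR-181a-5p, yet r between them was 0.13 (permutation p = 0.686, adjusted 0.686, rho = 0.33 with permutation p = 0.313, r = -0.0060 without 2). With miR-181b-5p, miR-181c-5p and miR-181d-5p r was 0.17, -0.18 and 0.14 (adjusted permutation p = 0.686 for each, rho = 0.21, 0.042 and 0.14). These values rested in part on Mir483Pat-KO replicate 4, without which r was 0.49 with miR-181a-5p, 0.40 with miR-181b-5p, 0.21 with miR-181c-5p and 0.37 with miR-181d-5p (adjusted permutation p from 0.230 to 0.559). Without WT replicate 4, r with miR-181c-5p was -0.41 and with miR-181d-5p -0.10. At 41 to 98 reads per library counting alone gives a log2 SD of 0.17 for this member, and the part of that error in these low correlations was not tested.

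**Figure D4:**
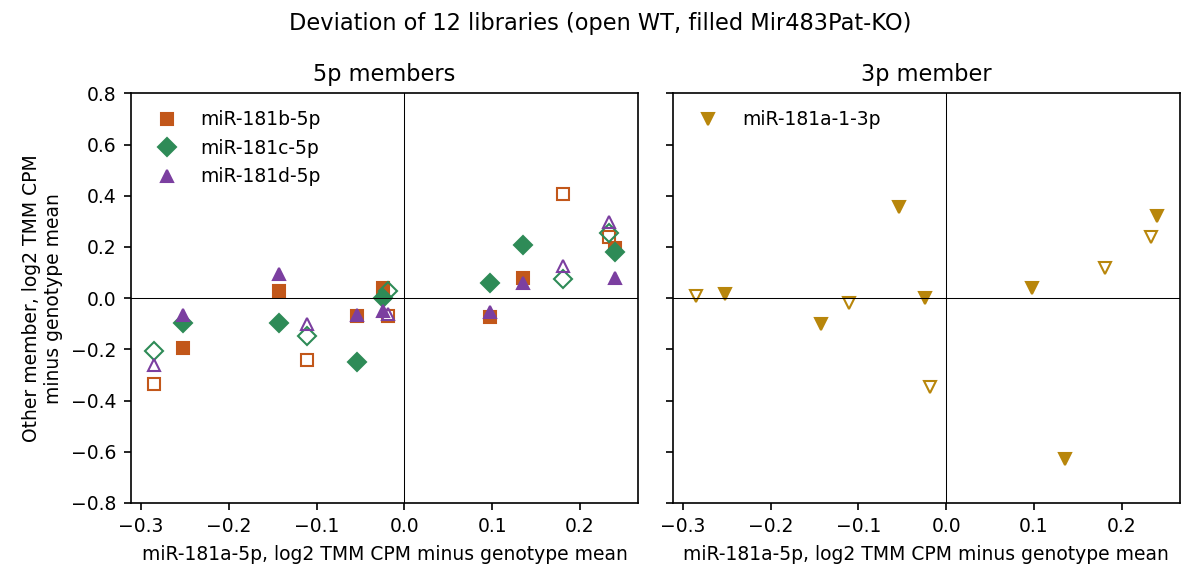
Deviation of miR-181a-5p from its genotype mean (x axis, log2 TMM CPM) against that of the other 5p members (left panel) and of miR-181a-1-3p (right panel), with 1 point per member and library, open for 5 WT and filled for 7 Mir483Pat-KO fetuses. The 5p members rise with miR-181a-5p (r = 0.75 to 0.86), while miR-181a-1-3p scatters around 0 (r = 0.13, and 0.49 without Mir483Pat-KO replicate 4), with its lowest point in a liver where miR-181a-5p is above its genotype mean.

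Other abundant miRs had a pattern like that of miR-181a-5p too. Of the 138 abundant miRs outside the family, the most alike over the 12 libraries were miR-423-3p (r = 0.91, rho = 0.94), the hepatocyte miR miR-122-5p (r = 0.84, rho = 0.91) and let-7i-5p (r = 0.82, rho = 0.76). These are descriptions, chosen as the highest values, and all miRs of a library share 1 RNA sample and 1 scaling factor. The hepatocyte list that holds miR-122-5p (miR-122-5p, miR-122-3p, miR-192-5p, miR-194-5p and miR-148a-3p) had 0 of 5 members called between genotypes, beside 2.06% of all miRs tested, none of them at 0 in every library, and a summed share of 18.6% to 19.8% of the miR reads in WT and 16.8% to 21.3% in Mir483Pat-KO. Most of this share was miR-122-5p itself, with 14.0% of the miR reads on average. The other list members were not among the most alike miRs named above. The list took 18.0% to 21.3% in the lower and 16.8% to 19.5% in the upper animal-number range. Its part in the level of miR-181a-5p was not tested.

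miR-181a-5p was lower, on average, in the upper animal-number range, with 9032, 9631 and 10854 CPM as lowest, median and highest of 4 livers, against 10191, 11966 and 13033 CPM in the 8 livers of the lower range. The ranges overlapped. In an edgeR fit with genotype and range together, chosen after the data were seen, the log2 difference of upper minus lower range was -0.28 (SE 0.078, 95% interval -0.45 to -0.12, unadjusted p = 0.00259), which did not pass adjustment over the 388 miRs (adjusted p = 0.120). No miR passed for this term (0 of 388, 0%), while 41 had an unadjusted p under 0.05. Leaving out single fetuses gave -0.34 to -0.25 with edgeR adjusted p of 0.0506 to 0.382, and the 7 Mir483Pat-KO livers alone gave -0.26 (edgeR adjusted p = 0.260). The other members gave -0.19 for miR-181b-5p, -0.17 for miR-181c-5p, -0.11 for miR-181d-5p and -0.073 for miR-181a-1-3p, with edgeR adjusted p between 0.588 and 0.912. Within the lower range alone, the log2 fold change of miR-181a-5p between genotypes was 0.017 (edgeR adjusted p = 0.942).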

How the data were processed

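Small RNA libraries of 12 fetal livers were made by the authors with the TruSeq Small RNA kit and sequenced on a NovaSeq6000. The deposited values are whole-number counts of reads per mature miR, which the authors obtained with miRge, not normalized and not pooled. The miR reference and adapter trimming are not given in the sources used here, and the submitters' processing notes name GRCm38. Genotypes and replicate numbers came from the sample labels, and columns were assigned by the animal number in their names. The members and gene lists were chosen with earlier results of these data known.

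miRs were kept by edgeR's filterByExpr (minimum count 10, minimum total count 15) and scaled by TMM. Genotype was the only term of the model, fitted to all 12 libraries in R 4.3.3 with edgeR 4.0.16 (estimateDisp, glmQLFit with legacy = TRUE, glmQLFTest), and p-values were adjusted by Benjamini-Hochberg across every miR that passed the filter. Correlations used log2 TMM CPM (prior count 2) and 100000 permutations within genotype. The text names the 5 members, the other arms of their hairpins, miR-483, the 3 miRs most like miR-181a-5p, and at most 2 examples per marker list beside its definition. Replicates are separate fetuses. Those that share a replicate number are different animals, and their deviations from the genotype means correlated at -0.24 to 0.23 over 5 pairs, so the numbers were not taken to pair the samples. Alternatives were other scalings (RLE, upper quartile, library size), filters, DESeq2 1.42.0, limma-voom (limma 3.58.1), a replicate block, the animal-number range, the index number and leaving out each fetus. The code was tested on simulated counts. Ratios of miR-181b and miR-181d to their 3p arms were not tested, since those arms were at 0 in all or all but 1 of the libraries.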

Additional observations from a re-analysis of the deposited data

Results flagged for a closer look

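The ratio of miR-181a-5p to the sum of its 3p arms was 129.5 in Mir483Pat-KO replicate 4, where the nearest of the other 6 Mir483Pat-KO livers had 89.4 and the lowest 64.7. This library stood far from the others of its group: the gap was 0.619 of the whole range, above the limit of 0.568 for 7 samples. The library had 8938 reads of miR-181a-5p, 41 of miR-181a-1-3p and 28 of miR-181a-2-3p, the fewest reads of either 3p arm among the 12 libraries. Chance alone marks about 1 in 20 groups in this way, and 1 of the 28 groups examined was marked. Without this liver the genotype difference of the log2 ratio was -0.25 (exact permutation test, adjusted p = 0.303), against -0.14 with all 12, and it was not called.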

How the results depend on the processing

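No member was called under any of the 11 alternatives or with any fetus left out. miR-181b-5p and miR-181a-1-3p kept a positive log2 fold change throughout, reaching 0.36 (SE 0.22) and 0.39 (SE 0.30) with the index number. The index-number fit cannot separate genotype from index order, since all WT numbers precede those of Mir483Pat-KO. The near-zero value of miR-181a-5p turned positive with upper-quartile scaling (0.0033), limma-voom (0.0020), the animal-number range as a factor (0.066), the index number as a covariate (0.35, SE 0.16) and the lower range alone (0.017). miR-181c-5p turned to -0.030 with library size alone. miR-181d-5p turned to 0.00032 with the range and 0.044 with the index number. With the replicate number as a block, miR-181a-5p was at 0.059 and miR-181d-5p at 0.0043, no member was called, and 3 miRs were DEMs. The ratios, the order and the correlations were not run with the block. In the lower range alone the ratio differences of miR-181c-5p to c-3p and of miR-181a-5p to c-5p were 0.00076 and 0.0031. The number of DEMs among 388 miRs was 14 with library size alone (3 higher, 11 lower, beside 4 and 4). It was 5 with the range and 3 with the index number. DESeq2 called 26 of the 215 miRs for which it gave an adjusted p, and the lower range alone had 2 of 377. The cause was not tested.

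Leaving out each fetus gave -0.067 to 0.057 for miR-181a-5p, 0.0079 (without WT replicate 2) to 0.20 (without WT replicate 1) for miR-181b-5p, 0.11 (without WT replicate 3) to 0.28 (without Mir483Pat-KO replicate 4) for miR-181a-1-3p, -0.027 to 0.099 for miR-181c-5p, -0.092 to 0.048 for miR-181d-5p and 3 to 12 DEMs. The correlations ranged from 0.63 to 0.85 (miR-181a-5p with d-5p), 0.64 to 0.83 (b-5p with c-5p), 0.78 to 0.91 (b-5p with d-5p), 0.62 to 0.82 (c-5p with d-5p), and with miR-181a-1-3p from -0.041 to 0.49 (a-5p), -0.41 to 0.21 (c-5p) and -0.10 to 0.37 (d-5p). Correlations in the lower range alone, chosen after seeing the data, were 0.89 for a-5p with b-5p, 0.64 for b-5p with c-5p and 0.82 for b-5p with d-5p, no longer past the threshold. With library size alone the 5p correlations ran from 0.63 (b-5p with c-5p, adjusted permutation p = 0.0460) to 0.83 (a-5p with c-5p), and each 5p pair still passed. Depth limits miR-181a-1-3p and the other 3p arms most.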

Other observations

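Markers of the other cell types of the fetal liver were read beside the miR-181 family. Of the erythroid list (miR-144-3p, miR-144-5p, miR-451a, and miR-486a-5p with miR-486b-5p as a joint entry), 0 of 4 were called by edgeR and 2 had an unadjusted p under 0.05, with a median log2 fold change of 0.19 and a summed share of 2.54% to 3.09% of the miR reads in WT and 2.57% to 3.63% in Mir483Pat-KO. Of the white blood cell list, miR-142a-3p, miR-142a-5p and miR-223-3p were tested and miR-150-5p and miR-155-5p were not, 0 of 3 were called, 0 had an unadjusted p under 0.05, and the median was 0.14, with a share of 1.21% to 1.44% in WT and 1.30% to 1.47% in Mir483Pat-KO. Of the stellate and vascular list (miR-199a-3p as a joint entry with miR-199b-3p, miR-199a-5p, miR-214-3p, miR-126a-3p, miR-143-3p and miR-145a-5p), 0 of 6 were called and 1 had an unadjusted p under 0.05, with a median of -0.092 and shares of 2.99% to 3.65% and 3.05% to 3.67%. Over all 388 miRs tested, 2.06% were called, 17.5% had an unadjusted p under 0.05, and the median was 0.0028.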
